A study of Mus musculus with 9 samples.

Results

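The unfolded protein response and the integrated stress response were followed through 39 genes in AML12 cells, a line of mouse hepatocytes derived from a mouse with a transforming growth factor alpha transgene. The genes fall into an ER chaperone arm of 20 genes and an Atf4 arm of 19 genes, taken as a list of symbols and matched to the deposited tables through GENCODE M1. All 39 are among the 13259 genes that both tables of the series list. RNA was sequenced from 9 libraries in 3 groups of 3, which were a control, *Srrm2* shRNA 1 and *Srrm2* shRNA 2. The hairpin groups had carried lentivirus with the hairpin for 5 days, and the labels give the control as a control shRNA without naming its target or a day. *Srrm2* encodes a scaffold protein of nuclear speckles. All cells were grown in medium with dexamethasone, insulin, transferrin and selenium, so dexamethasone, a synthetic glucocorticoid, was present in control and knockdown alike, and every library came from the same line.

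Proteins that enter the secretory pathway are folded in the endoplasmic reticulum (ER). When unfolded protein collects there, the sensors Ern1, Atf6 and Eif2ak3 are activated, and the transcription factors Xbp1 and Atf6 raise chaperones, folding enzymes and the machinery that returns misfolded protein to the cytosol for degradation. Eif2ak3 phosphorylates the translation factor eIF2, which slows most translation but favours that of Atf4, and other eIF2 kinases reach Atf4 from amino acid shortage and other stresses. Atf4 raises genes of amino acid synthesis, transfer RNA charging and, with its partner Ddit3, a later response linked to cell death. Hepatocytes secrete large amounts of protein and express ER chaperones at high levels also without stress.

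The value used for each gene is the authors' mean of normalized counts over the libraries of 1 comparison, here called a pooled mean. The first pooled mean covers shRNA 1 and control, and the second covers shRNA 2 and control. A pooled mean joins hairpin and control libraries, so it is a level of the gene in this experiment and not the level in 1 condition. Whether a member rose or fell in knockdown cells against the control cannot be read from it, and no value per library was used here, so no member has a replicate spread, a test or a p-value. The tables list 13424 and 13478 genes with summed pooled means of 6144608 and 6393456. Library depth is unknown. *Srrm2* itself had pooled means of 3428 and 3759, which do not check its knockdown in a library. Of 9 hepatocyte markers, all 9 were in both tables, led by *Krt18* at 9848 and *Krt8* at 8292 in the first, while *Apoa1* was at 39.4. *Ttr* was at 2497, *Alb* at 2151, *Hnf4a* at 1498, *Apoe* at 713, *Trf* at 390 and *Serpina1a* at 316. Biliary *Krt19* was at 2851, *Krt7* at 1351 and *Sox9* at 670, and *Epcam* was not in both tables. None of 3 endothelial markers was in both tables, and the 2 fibroblast markers listed, *Col1a1* and *Des*, were under 10. Of 4 blood and macrophage markers, *Cd68* was at 25.1 and *Ptprc* at 5.3, and neither *Adgre1* nor *Emr1* was in both tables.

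Some promoters in each arm carried short motifs that were rare or absent in the other arm. A few of these motifs are printed here. The ER stress element (ERSE) is the site of Atf6 and Xbp1 with the factor NF-Y, ERSE-II is a shorter form of it, and the composite element of Atf4 is a half-site of a C/EBP protein joined to a half-site of Atf4. Promoters were RefSeq windows of GRCm38.p6 that run from 250 bases before to 50 bases after a transcription start. Windows were found for 36 members, 17 in the ER chaperone arm and 19 in the Atf4 arm. *Atf6*, *Manf* and *Hyou1* had none. Each line gives a stretch on the strand of its gene from 5′ to 3′, with the matched motif in capitals. The coordinates were found by an exact match to mm9, where each stretch, with the bases beside it, occurs once.
Hspa5, ERSE, chr2:34627540-34627568, + strand: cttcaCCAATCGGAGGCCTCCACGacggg
Calr, ERSE, chr8:87370969-87370997, - strand: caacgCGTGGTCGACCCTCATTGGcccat
Canx, ERSE, chr11:50139297-50139325, - strand: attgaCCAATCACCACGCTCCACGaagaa
Hsp90b1, ERSE farther from the start, chr10:86168378-86168406, - strand: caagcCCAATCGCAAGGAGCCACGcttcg
Hsp90b1, ERSE nearer to the start, chr10:86168273-86168301, - strand: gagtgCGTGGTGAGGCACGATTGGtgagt
Herpud1, ERSE-II, chr8:96910268-96910296, + strand: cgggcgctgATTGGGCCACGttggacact
Asns, Atf4 composite, chr6:7643214-7643243, - strand: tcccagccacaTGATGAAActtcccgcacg
Chac1, Atf4 composite, chr2:119176774-119176803, + strand: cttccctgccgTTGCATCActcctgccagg
Gars, Atf4 composite, chr6:54987954-54987983, + strand: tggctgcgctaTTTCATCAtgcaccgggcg
Nupr1, Atf4 composite, chr7:133769076-133769105, - strand: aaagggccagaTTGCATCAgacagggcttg

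The stretches of *Calr*, *Canx*, *Hsp90b1*, *Chac1* and *Gars* lie outside every gene of GENCODE M1, and that of *Herpud1* lies in an intron of *Gm15890*. The stretches of *Hspa5*, *Asns* and *Nupr1* precede the RefSeq start but lie in an exon of the same gene in GENCODE M1, which places a start farther upstream.

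The ERSE, spelled CCAAT, 9 bases of any kind and CCACG and read on both strands, was found in the promoters of 7 of the 17 ER chaperone genes (41.2%) and in 0 of the 19 Atf4 genes. Of all 27025 genes with a window, 37 (0.137%) held it, and of the 9064 that were also in both tables, 16 (0.177%). The 7 were *Hspa5*, *Calr*, *Canx*, *Hsp90b1*, *Pdia6*, *Dnajc3* and *Creld2*, all chaperones, folding enzymes or ER-resident proteins of the lumen or its membrane. *Hsp90b1* held 2 matches. The matches began between 65 bases (*Hspa5*) and 212 bases (*Hsp90b1*) before the start. ERSE-II, spelled ATTGG, 1 base of any kind and CCACG, was found in *Herpud1*, 52 bases before the start, and in *Dnajb11*, 8 bases after it, against 12 of all genes (0.0444%). Both motifs share the CCACG end and can overlap, but no member held both. The core of the Xbp1 site known as UPRE, TGACGTGG, was in the window of no member and in 0.714% of all genes. Of a wider list of ER folding, translocation and degradation genes, 2 of 24 with a window (8.33%) held the ERSE.

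The Atf4 composite motif, TGATGNAA on either strand, was found in 8 of the 19 Atf4 genes (42.1%), against 1219 of all genes (4.51%) and 2.80% of those in both tables. The 8 were *Aars*, *Asns*, *Chac1*, *Gars*, *Nupr1*, *Pck2*, *Trib3* and *Vldlr*. In the ER chaperone arm *Herpud1* alone of 17 held it, beside its ERSE-II. The strict spelling TGATGCAA was in 4 of the 19 (21.1%), namely *Aars*, *Chac1*, *Nupr1* and *Vldlr*, and in 1.03% of all genes. Of a wider list of Atf4 targets and transfer RNA synthetases, 8 of 22 with a window (36.4%) held the motif. The strict spelling was also in 8 of these 22, so the motif is not particular to the arm. In *Trib3* the match lay after the start, and *Aars* held 2 matches, 1 before the start and 1 that began 10 bases after it. The serine and folate enzymes *Phgdh*, *Psat1*, *Psph*, *Shmt2* and *Mthfd2* held none of these motifs in their windows. A match to letters is no measure of binding, and the members were listed with their biology known, so these shares describe the list.

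**Figure D1:**
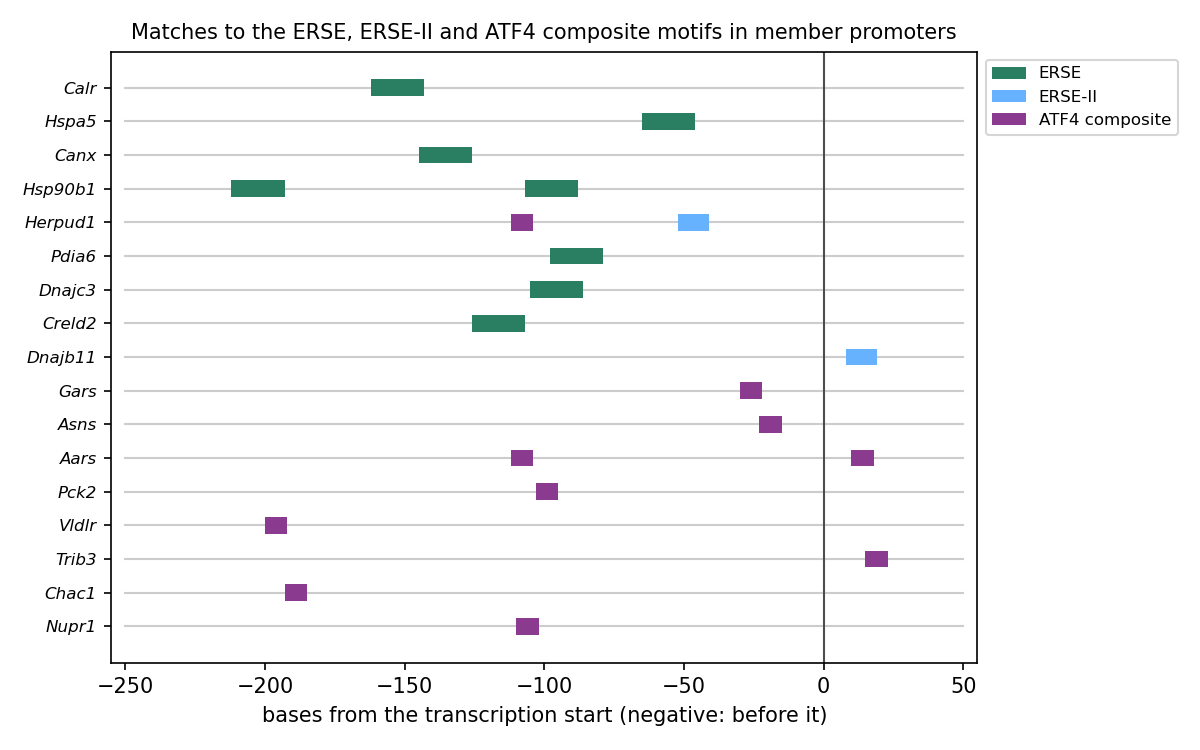
Position of motif matches in the promoters of the 17 members that hold one, with bases from the RefSeq transcription start on the horizontal axis and 1 gene in each row. Bars span the matched bases; all ERSE matches lie before the start, between 212 and 65 bases from it at their first base, and the matches in *Dnajb11* and *Trib3* and 1 of the 2 in *Aars* lie after it.

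The medians of both arms were well above that of all genes. Levels are compared between genes as the pooled mean per kilobase of annotated exon. The median of the ER chaperone arm was 198 per kilobase in the first pooled mean and 191 in the second, against medians of 44.2 and 46.4 for all genes, which makes it 4.49 and 4.10 times as high. The median of the Atf4 arm was 155 and 157, or 3.51 and 3.39 times that of all genes. Against genes with pooled means of at least 100 alone, the ER chaperone arm was 2.19 and 2.02 times and the Atf4 arm 1.71 and 1.67 times the median. In the first pooled mean 38 of the 39 members were above the median of all genes, with *Nupr1* the exception, and 15 were in the top 10% of all genes, 8 of the ER chaperone arm and 7 of the Atf4 arm. In the second pooled mean the same numbers of genes were in the top 10%. Wider lists of ER genes and of Atf4 targets, given below, had medians of 158 and 163 per kilobase in the first pooled mean. Levels like that of the Atf4 arm are thus not particular to the members.

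**Figure D2:**
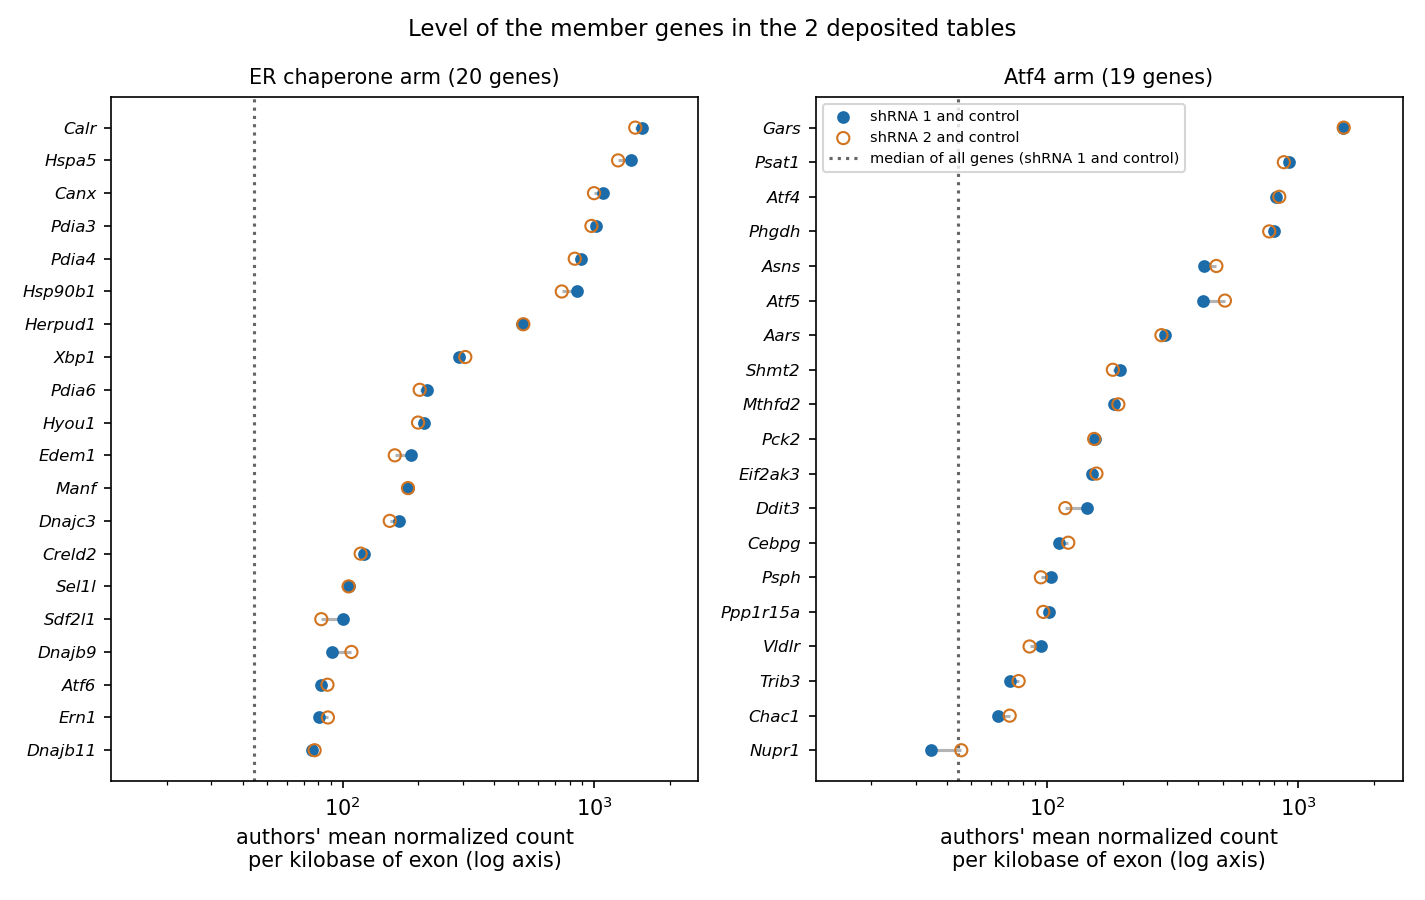
Authors' mean normalized count per kilobase of exon, on a log axis, for the 20 ER chaperone genes and the 19 Atf4 genes, with filled points for shRNA 1 and control and open points for shRNA 2 and control. The dotted line is the median of all genes in the first pooled mean, 44.2; *Calr* (1553) and *Gars* (1504) are highest in their arms, and *Nupr1* (34.7) is the only member with its filled point left of the line.

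The lectin chaperones and the main Hsp70 of the ER led the first arm. *Calr* (ENSMUSG00000003814.8), the lectin chaperone calreticulin, stood at 1553 per kilobase in the first pooled mean and 1459 in the second, at ranks 107 and 123 of all genes. *Hspa5* (ENSMUSG00000026864.7), the Hsp70 of the ER known as BiP, stood at 1400 and 1248 per kilobase, at ranks 131 and 150. The membrane-bound lectin chaperone *Canx* followed with 1082 and 1000.2 per kilobase. These 3 genes kept their order in both pooled means.

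The protein disulfide isomerases spread over a wider range. *Pdia3*, which acts on glycoproteins with calreticulin and calnexin, stood at 1021 and 977 per kilobase, and *Pdia4* at 884 and 838. *Pdia6* was lower, at 216 and 202. *Hsp90b1*, the ER form of Hsp90, stood at 852 and 745 per kilobase. In the annotation 15.7% of its exon bases are shared with other genes, so its counts may be incomplete. *Hyou1*, an exchange factor of BiP, stood at 210.5 and 199 per kilobase.

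The co-chaperones with a J domain, which hand substrates to BiP, were less abundant. *Dnajc3* stood at 168 and 154 per kilobase, *Dnajb9* at 90.6 and 108, and *Dnajb11* at 75.8 and 77.3, the lowest of the arm in both pooled means. *Sdf2l1*, a partner of Dnajb11, stood at 101 and 82.2. *Creld2* and *Manf*, small ER-resident proteins, stood at 122 and 118 and at 182 and 182.

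Of the genes of ER-associated degradation, *Herpud1*, a membrane protein that gathers the degradation complex, was highest with 518 and 523 per kilobase. *Edem1*, which directs misfolded glycoproteins to degradation, stood at 186 and 161, and *Sel1l*, the adaptor of the ubiquitin ligase Hrd1, at 106 and 106. The sensors were among the lowest of the arm, with *Atf6* at 82.2 and 87.0 per kilobase and *Ern1*, the kinase and nuclease that splices Xbp1 RNA, at 80.5 and 87.3. *Xbp1* stood at 289 and 307.5, a sum over spliced and unspliced forms that a count per gene does not separate.

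In the Atf4 arm, *Gars*, the glycyl transfer RNA synthetase, stood at 1504 and 1517 per kilobase and *Aars*, the alanyl synthetase, at 295 and 286. The enzymes of serine synthesis differed among themselves. *Psat1* stood at 917 and 877 per kilobase, *Phgdh*, which takes the first step, at 802 and 767, and *Psph*, which takes the last, at 104 and 94.6. The mitochondrial folate enzymes *Shmt2* and *Mthfd2* stood at 195 and 183 and at 185 and 192. *Asns*, the asparagine synthetase, stood at 420 and 472, and *Pck2*, the mitochondrial phosphoenolpyruvate carboxykinase, at 155 and 154.

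The transcription factors differed widely in level. *Atf4* (ENSMUSG00000042406.6) stood at 813 and 841 per kilobase, at rank 265 of all genes in both pooled means. *Atf5*, which like Atf4 is controlled in translation, stood at 418 and 511 and *Cebpg*, a dimer partner of Atf4, at 111 and 122. *Ddit3*, the factor known as CHOP, stood at 144 and 118. *Nupr1*, a small stress-induced chromatin protein, was the lowest member at 34.7 and 45.6, which is near the median of all genes.

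*Eif2ak3*, the eIF2 kinase PERK, stood in the middle of the arm at 151 and 157 per kilobase. The other genes of the arm not yet named were lower. *Ppp1r15a*, the subunit that directs a phosphatase to eIF2, stood at 102 and 96.7, and *Trib3*, a pseudokinase that restrains Atf4 and Ddit3, at 71.1 and 77.2. *Chac1*, an enzyme that degrades glutathione, stood at 63.7 and 71.1 and *Vldlr*, the very low density lipoprotein receptor, at 94.7 and 85.3.

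The 2 pooled means were then set against each other. Their log2 ratio, first over second, was centred on the median of all 13259 genes, which was -0.07 before centring, and a gene beyond 0.32 in either direction was counted as different. As far as the same control libraries enter both means, a difference between the hairpin groups is drawn toward 0 in this ratio. The tables were normalized separately and which control libraries entered the second is not settled, so differences between hairpins, controls and normalizations cannot be told apart in it. It is a description without a test. Beyond 0.32 were 1760 genes, or 13.3% of all, with 895 higher (6.75%) and 865 lower (6.52%) in the mean of shRNA 1 and control. Genes of low counts were most of these. Where both pooled means were at least 100, 324 of 7757 genes (4.18%) were beyond it.

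Of the 39 members, 3 (7.69%) were beyond 0.32, against 13.3% of all genes. Both pooled means were at least 100 for 37 of the members. Of these 37, *Ddit3* alone was beyond 0.32, against 4.18% of all genes with pooled means of at least 100. *Ddit3* (ENSMUSG00000025408.9, chromosome 10, 126727830 to 126733344, + strand) had pooled means of 247 and 203 and a centred log2 ratio of 0.36. *Sdf2l1* (ENSMUSG00000022769.7, chromosome 16, 17130231 to 17132476, - strand) had pooled means of 111 and 91.1 and also a ratio of 0.36. *Nupr1* (ENSMUSG00000030717.3, chromosome 7, 133766763 to 133770524, - strand) was lower, with pooled means of 85.0 and 112 and a ratio of -0.323, where the limit to 3 decimals is 0.322. Without centring, *Ddit3* and *Sdf2l1* had ratios of 0.28 and 0.29, inside the limit, and *Nupr1* had -0.40. *Sdf2l1* and *Nupr1* are also the members with a pooled mean under 100 in 1 of the tables. *Ddit3* shares 4.73% of its exon bases with other genes.

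**Figure D3:**
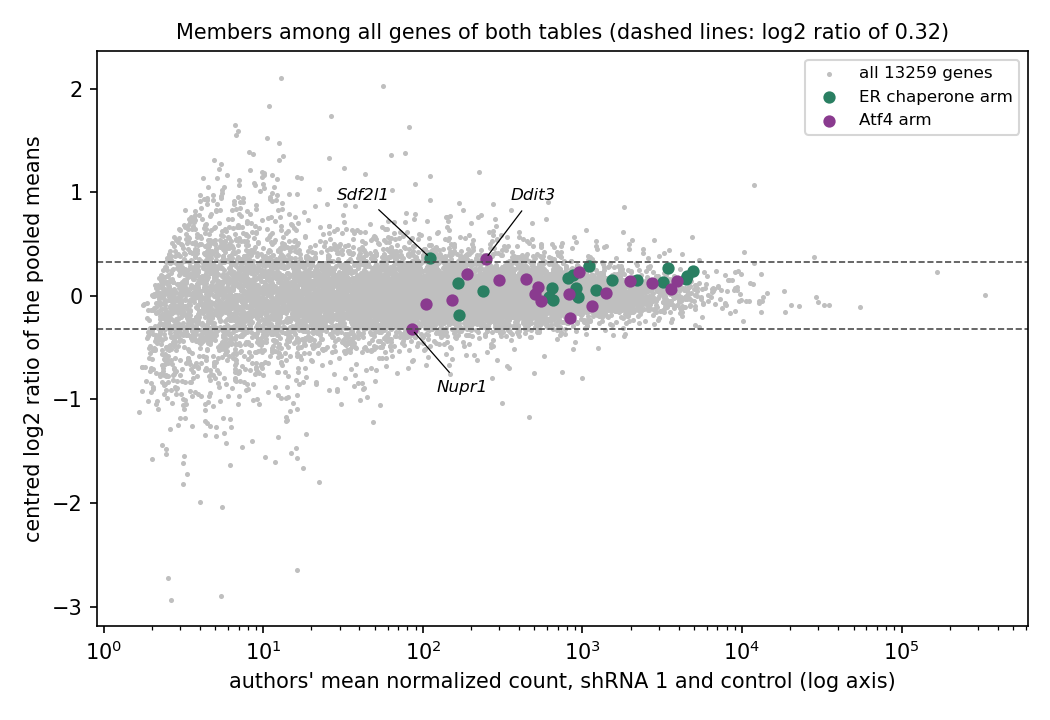
Centred log2 ratio of the 2 pooled means against the authors' mean normalized count of shRNA 1 and control (log axis), for all 13259 genes in grey and the members of the 2 arms in colour. Genes of low counts spread widest, and 36 of the 39 members lie between the dashed lines at 0.32, with *Ddit3* and *Sdf2l1* above and *Nupr1* on the lower line.

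Most genes of the ER chaperone arm had a centred ratio somewhat above 0. The median ratio of the arm was 0.14 on the log2 scale, with quartiles of 0.05 and 0.19, and 16 of 20 genes were above 0. The quartiles of all genes were -0.11 and 0.11, and 12 of the 20 were above the upper quartile, against 1 below the lower. The Atf4 arm had a median of 0.06 (quartiles -0.05 and 0.14), with 13 of 19 genes above 0, 8 above the upper quartile of all genes and 2 below the lower. Before centring, 14 of 20 genes of the ER chaperone arm and 9 of 19 of the Atf4 arm were above 0. The medians were then 0.070 and -0.012, so the sign of the Atf4 arm depends on the centring. Members of an arm are expressed in the same libraries, so they are not independent, and how much the medians would vary between libraries was not measured.

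**Figure D4:**
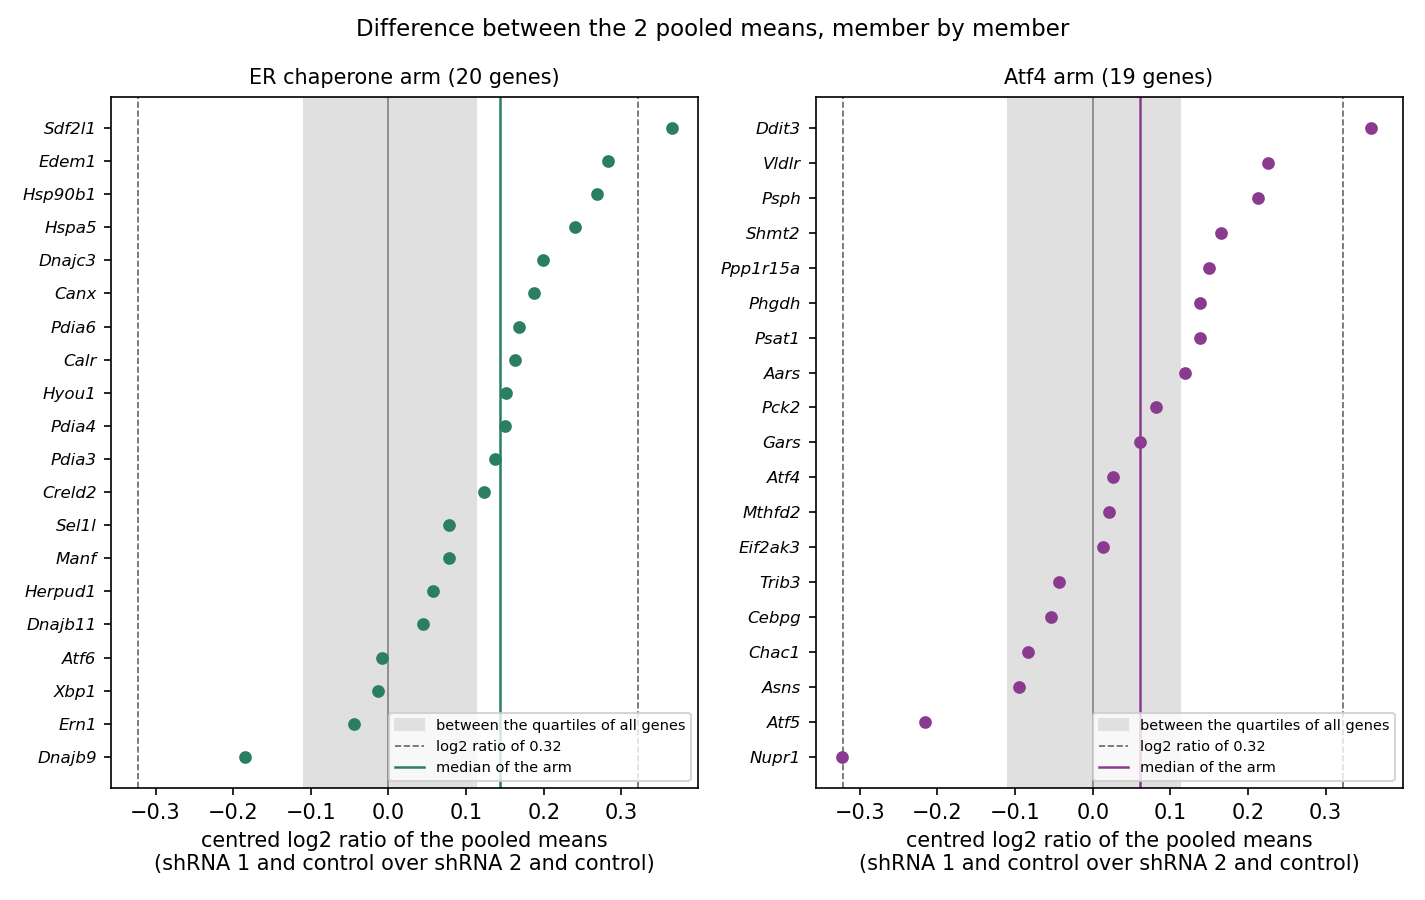
Centred log2 ratio of the pooled mean of shRNA 1 and control over that of shRNA 2 and control, for each member of the 2 arms, with the range between the quartiles of all genes shaded and dashed lines at 0.32. The ER chaperone arm has its median at 0.14 and 12 of 20 points right of the shading, and the Atf4 arm has its median at 0.06 and points on both sides.

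Within the ER chaperone arm, the members are given by role. These groups, like that of the serine and folate enzymes of the Atf4 arm, were formed after the values were seen. Of the chaperones, folding enzymes and small ER-resident proteins, the highest after *Sdf2l1* were *Hsp90b1* at 0.27, *Hspa5* at 0.24, *Dnajc3* at 0.20 and *Canx* at 0.19. *Pdia6* at 0.17, *Calr* at 0.16, *Hyou1* and *Pdia4* at 0.15, *Pdia3* at 0.14, *Creld2* at 0.12, *Manf* at 0.08 and *Dnajb11* at 0.04 followed. *Dnajb9* went the other way at -0.18, with pooled means of 169 and 202. *Edem1* had the second highest ratio of the arm, 0.28 at pooled means of 1092 and 944, while the other degradation genes *Sel1l* and *Herpud1* were at 0.08 and 0.06. *Xbp1*, *Atf6* and *Ern1* were at -0.01, -0.01 and -0.04.

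The 7 members with an ERSE were all above 0, from 0.12 to 0.27 with a median of 0.19. ER chaperone genes in which no ERSE was found ran from -0.18 (*Dnajb9*) to 0.36 (*Sdf2l1*). A link between motif and ratio was not tested. The 9 other genes with an ERSE that were in both tables had a median of 0.09, with 5 of 9 above 0. The members with an Atf4 composite motif, *Herpud1* included, ran from -0.32 to 0.23 with a median of 0.06 and 5 of 9 above 0. The 245 other genes with that motif had a median of -0.01.

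In the Atf4 arm, of the enzymes of serine and folate metabolism, *Psph* was at 0.21, *Shmt2* at 0.17, *Phgdh* and *Psat1* at 0.14 and *Mthfd2* at 0.02, or -0.05 without centring. *Atf4* was at 0.03. *Trib3* was at -0.04, *Cebpg* at -0.05 and *Atf5* at -0.22, with pooled means of 833 and 1017. *Asns* was at -0.10 and *Chac1* at -0.08. *Vldlr* was at 0.23, *Ppp1r15a* at 0.15, *Aars* at 0.12, *Pck2* at 0.08, *Gars* at 0.06 and *Eif2ak3* at 0.01. The known targets of Atf4 thus stood on both sides of 0.

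Wider lists gave other genes of these pathways. Of 30 genes of ER folding, translocation and degradation, 29 were in both tables, with a median ratio of 0.08 and 23 above 0. The highest per kilobase were *P4hb*, a protein disulfide isomerase, at 1647 in the first pooled mean, *Ganab*, a glucosidase, at 781 and *Sec61a1*, the channel of the translocon, at 660. Beyond 0.32 were *Sec61b*, a small subunit of the translocon, at 0.34 (pooled means of 33.8 and 28.1) and *Pdia5*, a disulfide isomerase, at -0.42 (17.6 and 24.7), both under the floor of 100 and named after their values were seen. Of 30 further Atf4 targets and transfer RNA synthetases, 28 were in both tables, with a median of 0.0044 and 14 above 0. The highest were *Slc3a2*, a subunit of amino acid transporters, at 1189 per kilobase, *Nars*, the asparaginyl synthetase, at 1033 and *Sqstm1*, an autophagy receptor, at 944. Beyond 0.32 were *Cbs* at 0.39 (pooled means of 123 and 98.6) and *Cth* at 0.34 (99.0 and 82.4). They are named although they miss the floor of 100 and were chosen after their values were seen. Of all genes in both tables, 13.3% were beyond 0.32, a larger share than in either of these 2 lists, but most of those genes had low counts. Where both pooled means were at least 100, 4.18% of all genes were beyond it. Of the 2 lists, 25 and 23 genes reached that floor, and none of these was beyond 0.32. Of 12 genes of eIF2, its exchange factor eIF2B and their regulators, 11 were in both tables, with a median of 0.08, 8 above 0 and none beyond 0.32. The highest were *Eif2s3x* at 354 per kilobase, *Ppp1r15b* at 222 and *Eif2b5* at 134.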

How the data were processed

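RNA-seq of 9 AML12 libraries was analysed from 2 deposited tables, 1 for each hairpin against the control. Per the labels and the study's methods, the authors trimmed reads and aligned them to mm9 by TopHat2. The authors used HTSeq to count unique concordant pairs over the genes of GENCODE M1. The authors normalized the counts in DESeq2 1.8.2. The strand setting of the count is not given in the sources used here, and the sources differ on whether RNA was polyA-selected or total. From these tables only the authors' mean normalized count was used, a normalized signal that the authors deposited. The tables also hold log2 fold changes, their errors, statistics, p-values and adjusted p-values of the authors' own comparisons, which were not used. Groups came from sample titles. The labels of 2 control libraries name tables of other hairpins, so which control libraries entered the second table is not settled.

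The tables were normalized separately. Pooled means were divided by annotated exon length (1000 bases) for levels and compared as a log2 ratio, centred on the median of 13259 shared genes, without a pseudocount. All 13259 identifiers matched GENCODE M1. Motifs were searched in 32851 RefSeq windows (GRCm38.p6). A gene counted as holding a motif if any of its windows did, and 3 members had more than 1 window. The calculation of the ratio and the motif search were tried on made-up input with a known answer. How far small ratios vary between libraries was not tested. Python 3.11.15, numpy 2.4.6, pandas 2.3.3 and matplotlib 3.10.9 were used. The members, arms and wider lists were chosen with earlier results of these data known. All members were named. For the wider lists the rule was to name the 3 highest per kilobase and genes beyond a log2 ratio of 0.32 at pooled means of at least 100. *Sec61b*, *Pdia5*, *Cbs* and *Cth* miss that floor and were named after their values were seen. Alternatives were other lengths, backgrounds, centrings, folds, minimum means, a pseudocount and other motif windows and spellings.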

Additional observations from a re-analysis of the deposited data

How the results depend on the processing

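Of 48 values under alternatives, 33 kept their sign and stayed within 1.5 times the reported value. Without centring, the median log2 ratio of the Atf4 arm changed sign to -0.012 and that of the ER chaperone arm was 0.070, while members beyond a log2 ratio of 0.32 numbered 0 in the ER chaperone arm and 1 in the Atf4 arm. With limits of 1.1-fold, 11 and 9 members were past, and at 1.5-fold 0 and 0. The shares of all genes without centring and at these limits were not counted, so the counts describe the members alone. Against genes with pooled means of at least 100, a background added after the data were seen, the ER chaperone arm was 2.19 and 2.02 times the median in the pooled means of shRNA 1 and shRNA 2, and the Atf4 arm 1.71 and 1.67 times. Only the bases before the start left ERSE-II in 1 gene of the ER chaperone arm. The strict Atf4 spelling left 4 genes of the Atf4 arm, and 2.80% of the genes that both tables list held the Atf4 composite motif. Centring on those higher genes, also added later, and scaling the tables to the same sum kept the sign of both medians.

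No paired analysis was possible because no value per library was used here, and for the same reason no replicate was left out. The planned search for ER retention signals in member proteins was not run, since no protein sequences were used. Neither the depth of a library nor the replicate error of a ratio is known, so small ratios such as the arm medians cannot be told from the spread between libraries.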
